A study of Homo sapiens with 4 samples.

Results

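The HOXB cluster genes described here are HOXB2, HOXB3, HOXB4, HOXB5, HOXB6, HOXB7, HOXB8, HOXB9, HOXB13 and the antisense gene HOXB-AS3. They are 10 of the 19775 genes that have a probe set with 1 gene symbol in the platform annotation, and they were taken with every probe set annotated to them, 22 in all. The genes were chosen because several had lower signals in CD133-high cells in an earlier look at the same arrays, so their CD133 differences are given as a description with no test. PC14 cells, a line from a human lung cancer of the non-small-cell kind, were sorted by the level of E-cadherin, an epithelial adhesion protein. A second sort used a lentiviral construct with green fluorescent protein under the P1 promoter of CD133. The 4 subpopulations were mesenchymal type CD133+ (PC14 E-CD133+), epithelial type CD133+ (PC14 E+CD133+), mesenchymal type CD133- (PC14 E-CD133-) and epithelial type CD133- (PC14 E+CD133-), written below as E-cadherin-low or E-cadherin-high and CD133-high or CD133-low. All 4 come from this 1 line and carry the reporter, and each was measured on 1 biotin-labelled Affymetrix array. In such bulk RNA, fewer cells with a transcript and less transcript per cell cannot be told apart.

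HOX genes encode homeodomain transcription factors that give cells their positional identity along the body axis. They sit in 4 clusters, A to D, and genes at the same place in different clusters are called paralogs. Within a cluster the order of the genes mirrors where and when they are switched on in the embryo. Retinoic acid and CDX factors help to switch them on, Trithorax-group proteins keep them active and Polycomb proteins keep them silent. Several HOXB genes are expressed in the developing lung.

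Signals are the deposited MAS5 intensities on a linear scale. The floor of an array was the median of its probe sets other than controls, a signal of 53.7 to 60.3, and signals below it were set to it. A log2 ratio was taken within a matched pair of arrays, and a ratio with 1 array at the floor is a bound, written "at least". A probe set was counted as lower or higher when both pairs of a comparison passed 2-fold and shared a direction. None of the differences has a replicate check, and the number of arrays limits their precision.

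Between 12309 and 12459 of the 19775 genes had a brightest probe set above the floor on each array. CDH1, the gene for E-cadherin, followed its sort by its brighter probe set, with 347 and 528 in the E-cadherin-low cells against 5548 and 3546 in the E-cadherin-high cells (CD133-high first in each pair). PROM1, the gene for CD133, lay below the floor on all 4 arrays, so the CD133 status rests on the reporter. Of the listed epithelial genes 4 of 6 lay above a floor, with EPCAM among them and KRT19 and CLDN4 below it. Some markers of other cell types differed with the CD133 sort, where 2.45% of all genes above a floor were counted as higher. Of 6 fibroblast genes 5 were above a floor and 2, DCN and LUM, were counted as higher in CD133-high cells, while PDGFRB was below the floor on all arrays and the collagen genes COL1A1, COL1A2 and COL3A1 were not counted. COL1A2 was at least 7.62-fold higher in CD133-high cells of the E-cadherin-low pair and at least 1.13-fold in the E-cadherin-high pair. The summed signal of the fibroblast list was 23889 and 32191 on the CD133-high arrays, against 17765 and 24735 on the CD133-low arrays. COL3A1 made up most of it, with 19767 and 29221 against 15938 and 22769. Of 4 leukocyte genes with a probe set, PTPRC was counted as higher, CD3E was not counted, and CD14 and LYZ were below the floor. The summed leukocyte signal was 1190 and 1310 on the CD133-high arrays, against 537 and 431 on the CD133-low arrays. The 1 endothelial gene above a floor of 4 was PECAM1, with a list sum of 148 and 177 on the CD133-high arrays, against 218 and 193 on the CD133-low arrays. Of 5 lung lineage genes 4 were above a floor and 0 were counted, with sums of 364 and 553 on the CD133-high arrays, against 569 and 482 on the CD133-low arrays. The part of other cell types in the HOXB results was not tested.

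Of the 22 HOXB probe sets, 17 were counted as lower in CD133-high cells and 0 as higher, 3 lay above a floor without being counted, and 2 lay below the floor on every array. Among all 26707 annotated probe sets above a floor, 0.985% were counted as lower, 2.03% as higher and 3.01% in either direction. The genes were chosen on this contrast, so nothing is read from the gap between the shares. The 17 probe sets cover 9 of the 10 genes, HOXB13 being the exception. Of the 20 probe sets above a floor, 7 passed only through the CD133-low arrays, and 5 of these 7 were counted. The 20 had a median log2 ratio of -3.04 in the E-cadherin-low pair and -3.32 in the E-cadherin-high pair, against 0.00 and 0.00 for all annotated probe sets above a floor. Averaged over both pairs the median of the 20 was -3.31, and it was -2.02 over the 10 whose IDs do not mark them as shared.

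**Figure D1:**
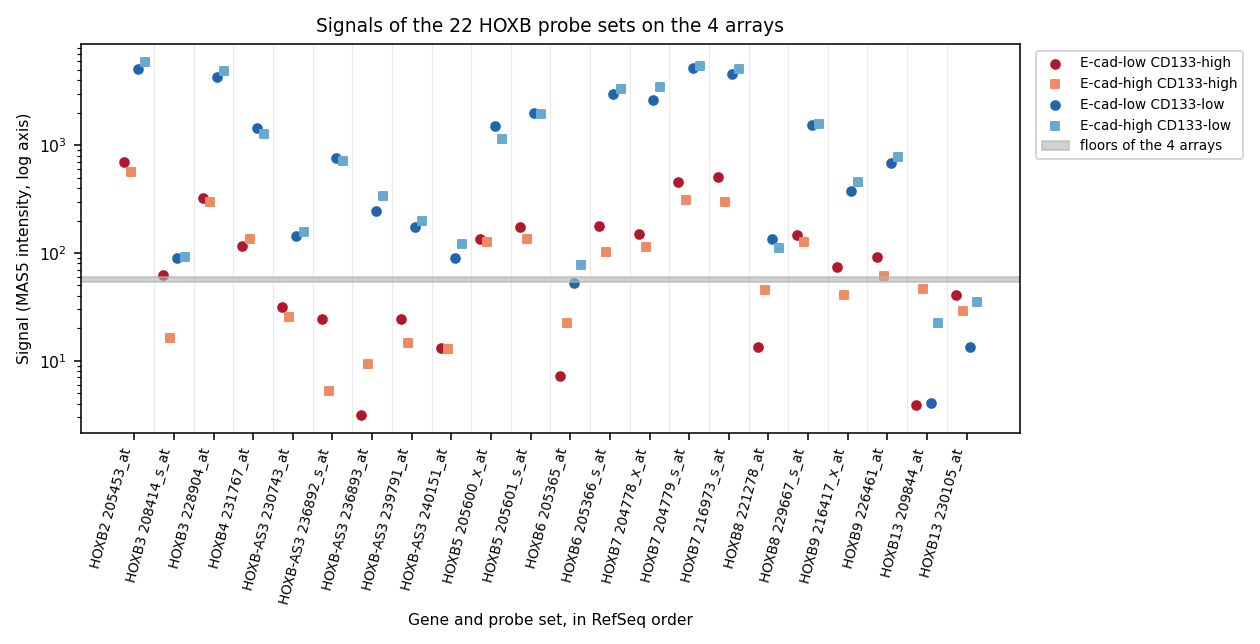
Signal (MAS5 intensity, log axis) of each of the 22 HOXB probe sets on the 4 arrays, ordered as the genes lie in RefSeq, with the range of the 4 floors as a grey band. Red and orange points are the CD133-high arrays and blue points the CD133-low arrays; the blue points lie above the red and orange ones in the 17 counted probe sets, and both HOXB13 probe sets lie under the band.

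The anterior members HOXB2, HOXB3 and HOXB4 were all lower in CD133-high cells. HOXB2, which takes part in hindbrain patterning, read 704 in E-cadherin-low and 562 in E-cadherin-high cells that were CD133-high. The matching CD133-low cells read 5068 and 5976. The log2 ratios were -2.85 in the E-cadherin-low pair and -3.41 in the E-cadherin-high pair.

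HOXB3, which also patterns the hindbrain, had 2 probe sets. The brighter one, 228904_at, read 324 and 299.6 in E-cadherin-low and E-cadherin-high CD133-high cells, against 4273 and 4878 in the CD133-low cells, which is 13.2-fold and 16.3-fold lower. The dimmer one, 208414_s_at, lay near the floors, with 62.8 and 16.2 on the CD133-high arrays, against 89.2 and 92.6 on the CD133-low arrays. It kept the same direction without reaching 2-fold, at -0.51 and, as a bound, -0.79. The ID of the bright probe set does not mark it as shared, and that of the dim one does.

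HOXB4, a gene known for expanding blood stem cells, is covered by 1 probe set, 231767_at, that is not marked as shared. It read 117 and 136 in E-cadherin-low and E-cadherin-high CD133-high cells, against 1442 and 1279 in the CD133-low cells. HOXB4 was thus 12.3-fold and 9.40-fold lower, with the larger fold in the E-cadherin-low pair.

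The central members HOXB5 to HOXB8 lie next to each other. HOXB5, which acts in the branching of the embryonic lung in mice, had 2 probe sets that gave near values. Probe set 205601_s_at read 174 and 135 in E-cadherin-low and E-cadherin-high CD133-high cells, against 1998 and 1937 in CD133-low cells, with log2 ratios of -3.52 and -3.85. Probe set 205600_x_at read 134 and 127 against 1520.2 and 1143, with -3.50 and -3.17. Both IDs mark the probe set as shared between transcripts, and the pairs differ in which has the larger ratio.

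HOXB6, a regulator of blood and skin cell development, had the lowest measured ratio of the members in the E-cadherin-high pair, bounds left aside. Its probe set 205366_s_at read 177 and 102 in E-cadherin-low and E-cadherin-high CD133-high cells, against 2959 and 3319 in the CD133-low cells. That is 16.7-fold lower in the E-cadherin-low pair and 32.6-fold lower in the E-cadherin-high pair. The other probe set of HOXB6, 205365_at, was above the floor only in E-cadherin-high CD133-low cells. There it read 76.7, against 22.5 in E-cadherin-high CD133-high cells, a bound of -0.51, while the E-cadherin-low arrays read 7.2 for CD133-high and 52.4 for CD133-low cells. So the large difference of HOXB6 rests on the single probe set marked as shared.

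HOXB7, a gene tied to invasive growth of several carcinomas, was measured by 3 probe sets, all marked as shared. Probe set 204779_s_at read 456 and 310.0 in E-cadherin-low and E-cadherin-high CD133-high cells, against 5263 and 5469 in CD133-low cells. Probe set 216973_s_at read 505 and 300.4 against 4587 and 5153. Probe set 204778_x_at read 151 and 114 against 2642 and 3453. All 3 were lower in both pairs, by 11.5-fold, 9.09-fold and 17.5-fold in the E-cadherin-low pair. In the E-cadherin-high pair they were lower by 17.6-fold, 17.2-fold and 30.2-fold. The folds differed between the probe sets.

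HOXB8, which blocks the maturation of mouse myeloid progenitors when overexpressed, had 2 probe sets of unlike brightness. The brighter one, 229667_s_at, read 146 and 126 in E-cadherin-low and E-cadherin-high CD133-high cells, against 1558 and 1584 in CD133-low cells, with log2 ratios of -3.42 and -3.66. The dimmer one, 221278_at, is not marked as shared and read 13.3 and 45.4 against 134 and 112. It was below the floor in both CD133-high cells and at least 2.22-fold and at least 2.09-fold lower, just past the 2-fold rule.

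The posterior member HOXB9, linked in lung adenocarcinoma to Wnt signalling and metastasis, was lower by both of its probe sets. Probe set 226461_at read 91.5 and 61.5 in E-cadherin-low and E-cadherin-high CD133-high cells, against 679 and 779 in CD133-low cells, or 7.42-fold and 12.7-fold lower. Probe set 216417_x_at read 73.7 and 40.5 against 378 and 458, or 5.13-fold and, as a bound, at least 8.53-fold lower. Both HOXB9 probe sets lay close to the floors on the CD133-high arrays. HOXB13, which works with the androgen receptor in prostate cells, gave no measure on these arrays. Its probe sets read 3.9 and 46.1, and 40.6 and 29.2, in E-cadherin-low and E-cadherin-high CD133-high cells, against 4.1 and 22.3, and 13.4 and 35.0, in CD133-low cells.

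HOXB-AS3 is a long noncoding RNA gene whose RefSeq interval overlaps HOXB5 and HOXB6 on the other strand. All 5 of its probe sets were under the floor on the CD133-high arrays and over it on the CD133-low arrays. Probe set 236892_s_at read 24.2 and 5.2 in E-cadherin-low and E-cadherin-high CD133-high cells, against 767 and 710.2 in CD133-low cells, so it was at least 12.7-fold and at least 13.2-fold lower. Probe set 236893_at read 3.1 and 9.4 against 244 and 337, at least 4.05-fold and at least 6.27-fold lower. Probe sets 239791_at and 230743_at were at least 2.88-fold and at least 2.40-fold lower in the E-cadherin-low pair. In the E-cadherin-high pair they were at least 3.66-fold and at least 2.90-fold lower. Probe set 240151_at read 90.8 and 120.3 in the CD133-low cells, and its bounds of 1.51-fold and 2.24-fold left it uncounted. The strand that the labelling kept is not given in the sources used here, so signals of the antisense gene and of HOXB5 or HOXB6 transcripts cannot be told apart from the labels alone.

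HOXB-AS3 is the only member with an entry in the promoter table used here, taken from RefSeq (GRCh38.p14), and the other 9 were not looked up elsewhere. Its sequence is shown beside that of HOXB-AS1, an antisense gene between HOXB2 and HOXB3 that did not meet the 2-fold rule. Both run from 250 bases before to 50 bases after the start, on the plus strand. HOXB-AS3 is at chr17:48595708-48596007 and HOXB-AS1 at chr17:48544101-48544400. Capitals mark TAAT, the core letters that homeodomains bind, on either strand.
HOXB-AS3: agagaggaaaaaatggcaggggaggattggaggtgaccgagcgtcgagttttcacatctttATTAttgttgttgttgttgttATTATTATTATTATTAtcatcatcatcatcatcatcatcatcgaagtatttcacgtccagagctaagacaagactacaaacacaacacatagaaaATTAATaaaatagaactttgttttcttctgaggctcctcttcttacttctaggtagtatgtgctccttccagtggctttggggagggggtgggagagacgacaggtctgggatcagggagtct
HOXB-AS1: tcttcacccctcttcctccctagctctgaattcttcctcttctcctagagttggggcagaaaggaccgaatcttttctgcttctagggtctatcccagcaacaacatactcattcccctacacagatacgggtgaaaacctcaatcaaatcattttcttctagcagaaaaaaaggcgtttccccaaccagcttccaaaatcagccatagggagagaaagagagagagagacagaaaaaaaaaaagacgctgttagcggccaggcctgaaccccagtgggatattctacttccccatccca
The HOXB-AS3 window held 8 matches to TAAT, most of them overlapping in 1 repeat, and the HOXB-AS1 window held 0. Of the 35116 promoters of the same length 50.2% held at least 1. Neither window held AGGTCA, the half-site of retinoic acid receptors, on either strand, and 13.8% of promoters did. CG dinucleotides numbered 6 in the HOXB-AS3 window and 5 in the HOXB-AS1 window, against a median of 14 over the promoters. A match is a run of letters and shows no binding.

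Along the chromosome the lower signals formed one run, from HOXB2 to HOXB9. Of the 15 genes with a probe set between HOXB1 and HOXB13, 11 lie from HOXB2 to HOXB9, and by their brightest probe set 10 of these 11 were counted as lower. Among all 14083 genes above a floor, 1.12% were counted as lower and 2.45% as higher. As 9 of the 10 are members, which were chosen on this contrast, nothing is read from the gap between these shares. The exception in the run was HOXB-AS1, whose probe set 244512_at read 82.4 in E-cadherin-low and 120.3 in E-cadherin-high CD133-high cells, against 168 and 157 in CD133-low cells. Its ratios were -1.03 and -0.39, and those of its other probe set 237189_at were -0.59 and -0.97.

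One counted gene of the run is MIR10A, the gene of a microRNA embedded between HOXB4 and HOXB5. The probe set annotated to it, 232979_at, read 38.0 and 38.1 in E-cadherin-low and E-cadherin-high CD133-high cells, against 309 and 181 in CD133-low cells. It was at least 5.13-fold and at least 3.37-fold lower. It was annotated through a longer transcript and measures neither mature arm. The arms are printed with RefSeq sequences (GRCh38.p14), because the gene lies inside the run. Capitals mark the seed, bases 2 to 8, and the arms lie on the minus strand at chr17:48579904-48579926 and chr17:48579864-48579885.
hsa-miR-10a-5p: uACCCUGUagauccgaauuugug
hsa-miR-10a-3p: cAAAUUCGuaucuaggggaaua
The 2 arms have different seeds.

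At both ends of the cluster the signals were at or near the floors. HOXB1, the hindbrain gene at the anterior end, read 98.9 and 23.9 by its brighter probe set in E-cadherin-low and E-cadherin-high CD133-high cells, against 25.8 and 73.0 in CD133-low cells. Its bounds point in opposite directions, 0.79 and -0.44, and its other probe set was below all floors. At the posterior end LINC02086 read 22.5 and 44.3 against 86.1 and 75.8, with bounds of -0.51 and -0.50. PRAC1 and HOXB13 were below the floor on all arrays, so no ratio exists there.

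Of the 20 flanking genes, the 10 nearest on each side with a probe set, 14 lay above a floor, 2 were counted as lower and 0 as higher. Their median ratio was -0.12 in the E-cadherin-low and -0.13 in the E-cadherin-high pair. On the HOXB1 side the nearest gene LOC101927166 was below the floor. Next to it SKAP1, an adaptor protein of T cells, read 46.8 and 7.9 in E-cadherin-low and E-cadherin-high CD133-high cells, against 198 and 183 in CD133-low cells. For SKAP1 that is at least 3.28-fold and at least 3.41-fold lower, and its neighbour SNX11, an endosomal sorting protein, had ratios of -0.09 and -0.56. NFE2L1, a transcription factor of the proteasome stress response, was also counted, 2.16-fold and 2.15-fold lower by its brightest probe set. The other NFE2L1 probe sets, with -1.49 and -0.82 and with -1.02 and -0.91, were not counted. On the HOXB13 side 0 of the 10 genes were counted. TTLL6 was below the floor, the autophagy receptor CALCOCO2 had ratios of -0.01 and 0.06, and the ATP synthase subunit gene ATP5MC1 had -0.44 and -0.45.

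**Figure D2:**
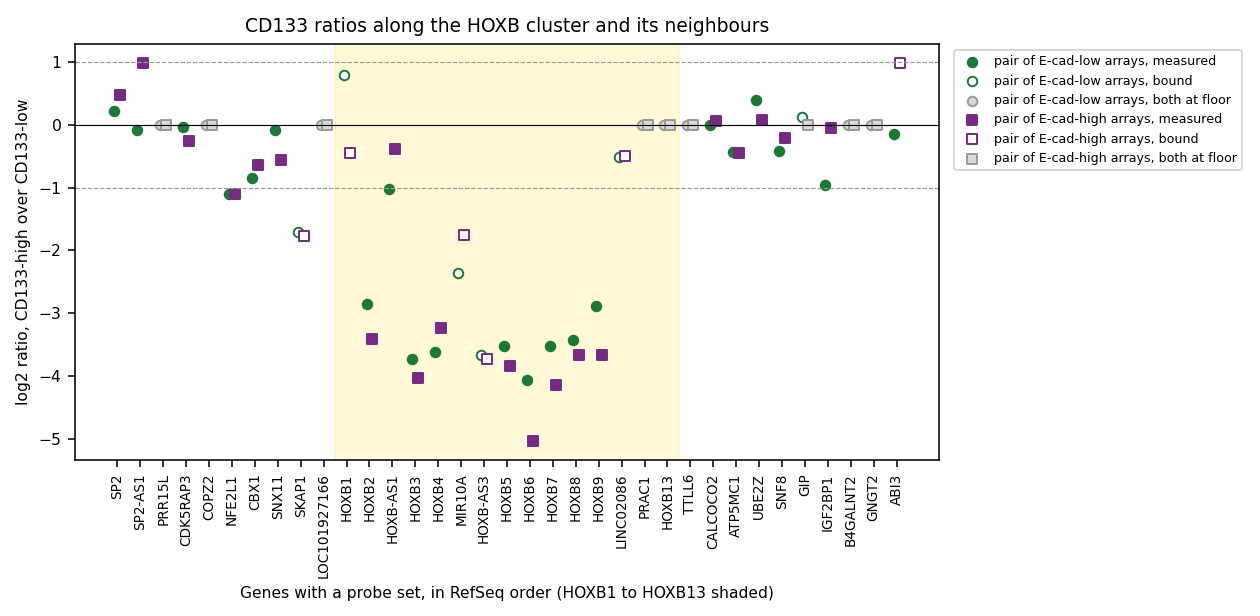
The log2 ratio of CD133-high over CD133-low signal in the pair of E-cadherin-low arrays (circles) and in the pair of E-cadherin-high arrays (squares) for the brightest probe set of each gene, in RefSeq order with HOXB1 to HOXB13 shaded. Filled symbols are measured ratios, open ones bounds and grey ones pairs with both arrays at the floor; from HOXB2 to HOXB9, 10 of 11 genes lie under the dashed line at -1 in both pairs, and outside the shading SKAP1 and NFE2L1 do.

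No measured HOXB ratio reached 2-fold with the E-cadherin sort. In the comparison of E-cadherin-low with E-cadherin-high cells 0 of the 22 probe sets were counted, and no ratio of 2 arrays above the floor reached 2-fold in either pair. In CD133-high cells 7 of the 20 probe sets above a floor were at the floor on both arrays, and HOXB3 208414_s_at and HOXB9 216417_x_at on 1, so a 2-fold difference could not be measured there. Among all annotated probe sets above a floor 0.434% were counted as lower, 0.416% as higher and 0.85% in either direction. The 11 HOXB probe sets above the floor on all 4 arrays allow a closer look, and they cover HOXB2 to HOXB9. In CD133-high cells, 10 of these 11 read higher in E-cadherin-low than in E-cadherin-high cells, with a median log2 ratio of 0.37. In CD133-low cells 8 of the 11 read lower in E-cadherin-low cells, with a median of -0.17. Both conditions held for 8 of the 11, or 72.7%, and for 24.8% of the 19640 annotated probe sets above all 4 floors.

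The E-cadherin ratio of HOXB6 by 205366_s_at was 0.80 among CD133-high cells and -0.17 among CD133-low cells, the widest gap of the 11. HOXB7 had 0.75 and -0.17 by 216973_s_at, 0.56 and -0.06 by 204779_s_at, and 0.40 and -0.39 by 204778_x_at. For HOXB9 the values were 0.57 and -0.20, and for HOXB2 they were 0.32 and -0.24. HOXB4 went the other way, with -0.21 and 0.17, and both HOXB5 probe sets were above 0 in both. The same numbers give the CD133 log2 ratio of the E-cadherin-low pair minus that of the E-cadherin-high pair. Over the 11 this difference had a median of 0.56, from -0.39 for HOXB4 to 0.97 for HOXB6. The 11 probe sets cover 8 genes, HOXB7 by 3 of them and HOXB5 by 2, so they are not separate measures. In CD133-high cells these 11 read 91.5 to 704 on the E-cadherin-low and 61.5 to 562 on the E-cadherin-high array, and the floors of these arrays were 60.3 and 53.7. With all arrays brought to equal medians, the median in CD133-high cells was 0.20, all annotated probe sets having a median of -0.10 there, and both conditions held for 7 of the 11. With the floor at the 65th percentile they held for 5. Whether the E-cadherin ratios differ between CD133-high and CD133-low cells was not tested, as 1 array per subpopulation allows no test.

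**Figure D3:**
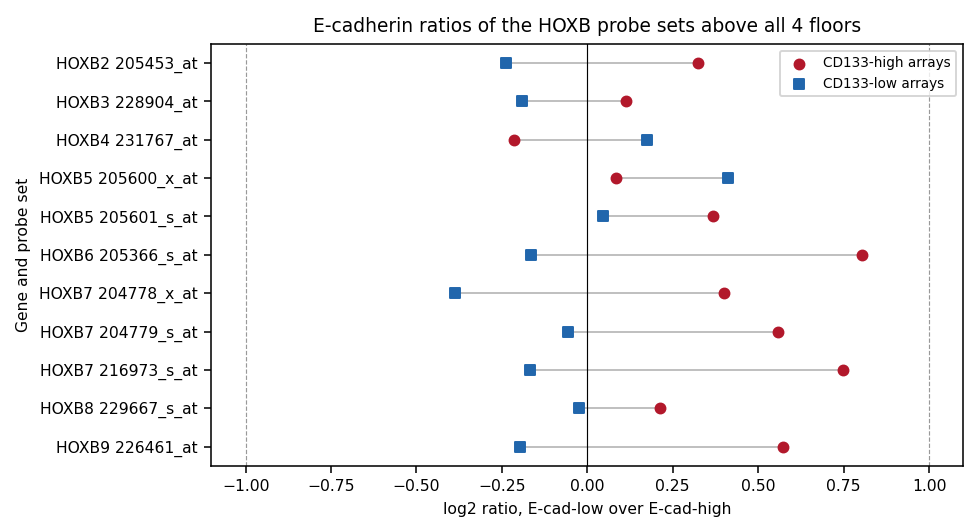
The log2 ratio of E-cadherin-low over E-cadherin-high signal for the 11 HOXB probe sets above all 4 floors, in CD133-high cells (red circles) and in CD133-low cells (blue squares), with a grey line joining the values of a probe set and dashed lines at 2-fold. All points lie inside 2-fold; 8 probe sets have a red circle right of 0 and a blue square left of 0.

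Paralogs in the other clusters were divided. Of 19 HOXA, HOXC and HOXD paralogs of groups that the HOXB members represent, 11 had a probe set with 1 gene symbol. Probe sets annotated to several symbols were left out, and HOXA2 is the only HOXA gene among the 11. All 11 lay above a floor, and 3 were counted as lower and 0 as higher. Another 3 passed 2-fold in 1 pair only, HOXC4 with ratios of -1.69 and -0.96, HOXD4 with -0.92 and -2.10 and HOXD8 with 0.11 and -1.19 in the E-cadherin-low and E-cadherin-high pairs. The 11 paralogs had a median ratio of -0.77 in the E-cadherin-low pair and -0.96 in the E-cadherin-high pair. HOXA2, the paralog of HOXB2, read 23.1 and 3.0 in E-cadherin-low and E-cadherin-high CD133-high cells, against 790.3 and 686 in CD133-low cells, and was at least 13.1-fold and at least 12.8-fold lower. HOXC9, the paralog of HOXB9, had ratios of -1.81 and -1.43, and HOXD13, the paralog of HOXB13, -1.60 and -1.50. Of the dimmer HOXD13 probe sets, 207397_s_at had -1.82 and -2.20, and 207398_at, with -0.60 and -1.23, did not meet the rule. HOXC6, the paralog of HOXB6, read 6088 and 4315 against 9117 and 5615, and its ratios of -0.58 and -0.38 stayed under 2-fold. Genes of the other clusters outside these 11 were divided too. HOXD10 was lower in both pairs, with -1.74 and -2.61, as were HOXD11 with -1.61 and -1.23 and HOXD1 with -1.05 and -2.55. HOXA-AS2, with bounds of -1.45 and -2.11, and HOXA11-AS also met the rule. HOXC10, HOXC11, HOXA-AS3, HOTTIP and HOXD-AS2 did not. Lower signals in CD133-high cells were thus not confined to the HOXB cluster.

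HOX proteins bind DNA together with TALE-class homeodomain cofactors, and these were divided. Of 9 listed cofactors 8 had a probe set above a floor, 1 was lower, 1 was higher and 6 were neither. MEIS2 read 1088 and 932 in E-cadherin-low and E-cadherin-high CD133-high cells, against 2848 and 1965 in CD133-low cells, or 2.62-fold and 2.11-fold lower. MEIS3 read 145 and 204 against 47.0 and 58.1, with ratios of 1.81 in the E-cadherin-high pair and, as a bound, 1.35 in the E-cadherin-low pair. The median of the cofactors was 0.07 and 0.20.

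Of the genes that switch HOX clusters on or keep them in a state, the retinoid and CDX list had 12 above a floor. By brightest probe set 2 of them were lower and 0 higher, against 1.12% lower and 2.45% higher among all genes above a floor. RARB, the retinoic acid receptor beta, read 256 and 756 in E-cadherin-low and E-cadherin-high CD133-high cells, against 1667 and 1743 in CD133-low cells. RARB was 6.52-fold lower in the E-cadherin-low and 2.30-fold lower in the E-cadherin-high pair. Its other probe set above a floor, 208530_s_at, gave -2.60, as a bound, and -1.36. CYP26B1, an enzyme that breaks down retinoic acid, was 2.46-fold and 3.51-fold lower, while its dimmer probe set above a floor had 0.00 and 0.32. The retinoid list had medians of -0.30 and -0.48 in the E-cadherin-low and E-cadherin-high pairs. Among Polycomb genes 0 of 14 above a floor were counted, with medians of 0.15 and -0.05, and the methyltransferase EZH2, named after its values were seen, had -0.79 and -0.12. Among Trithorax-group genes and Polycomb antagonists 0 of 10 were counted, with medians of 0.07 and -0.13. All 14083 genes above a floor had a median of 0.00 in both pairs.

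**Figure D4:**
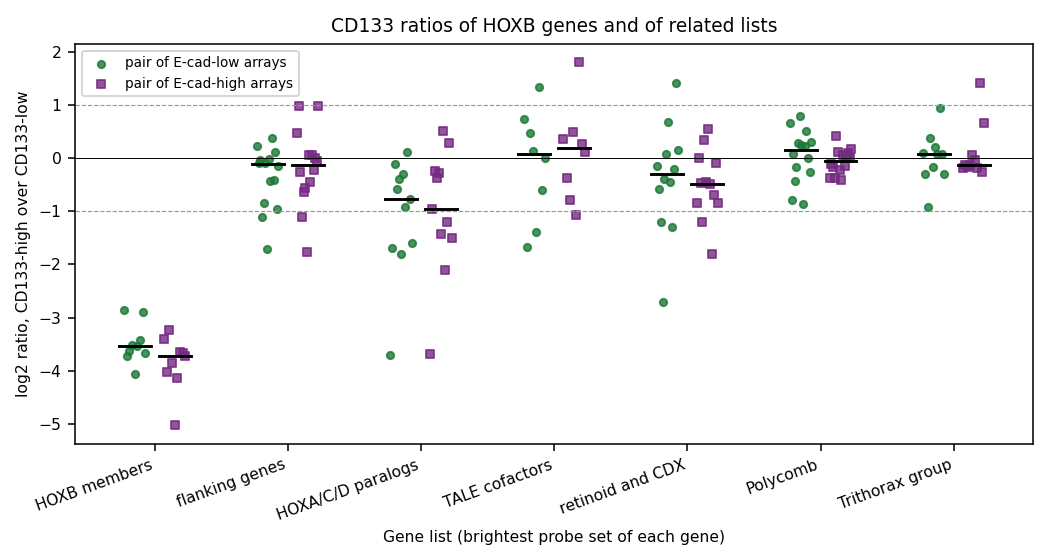
The log2 ratio of CD133-high over CD133-low signal of the genes above a floor in each list, by brightest probe set, in the E-cadherin-low pair (circles) and the E-cadherin-high pair (squares), with black bars at the medians and dashed lines at 2-fold. The HOXB genes above a floor lie between -2.85 and -5.03, and the medians of the other 6 lists lie between -0.96 and 0.20.

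The profile of the HOXB genes over the 4 arrays was also set against every other gene above a floor. Each gene's log2 signal, with values below the floor set to it, was centred on its own mean. The distance to the mean HOXB profile was the root mean square difference over the 4 arrays. The 9 HOXB members above a floor had distances of 0.041 for HOXB5 to 0.47 for HOXB6. The nearest gene that is no member was HOXA2, with 0.11, closer than 6 of the 9 members. HOXA2 lay below the floor on both CD133-high arrays, with 23.1 and 3.0, so the floor helps to set its distance. The same holds for the member HOXB-AS3, and the members themselves form the mean profile. Outside the HOX clusters the nearest was SYDE2, with 0.24. It read 26.9 and 54.5 in E-cadherin-low and E-cadherin-high CD133-high cells, against 965 and 1032 in CD133-low cells. The adaptor SKAP2 followed with 0.28, reading 368 and 496 against 5251 and 6129. The proteoglycan GPC6 had a distance of 0.31, CABLES1 0.35 and the Rac regulator CHN1 0.40. ID2, an inhibitor of basic helix-loop-helix factors, had 0.50, ARHGAP24, a Rac regulator, 0.51, and the adaptor GRB10 0.61. GRB10 also differed with E-cadherin, with a log2 ratio of 1.58 among CD133-high cells and 0.14 among CD133-low cells. With 4 arrays, such a distance mostly records the size of the CD133 difference.

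**Figure D5:**
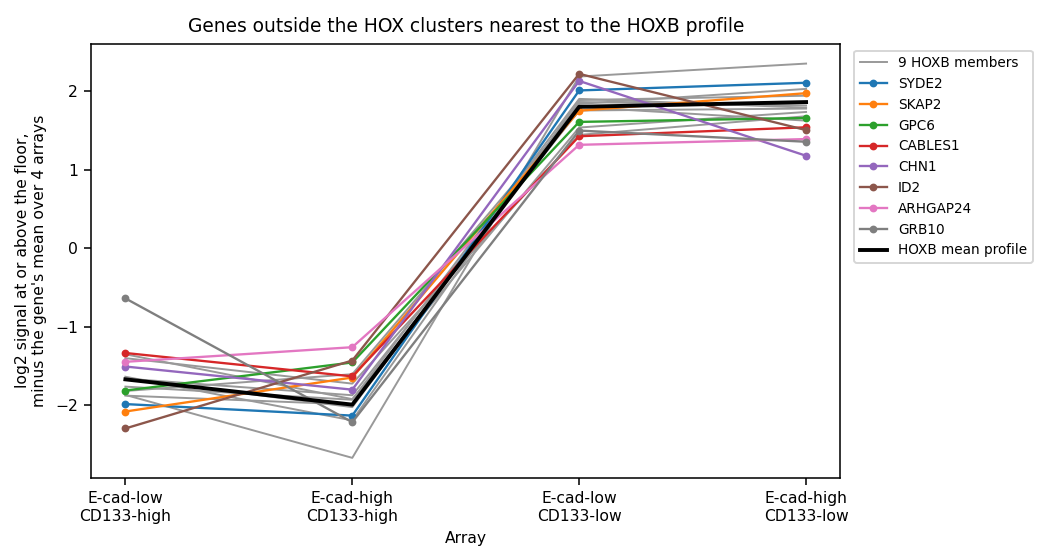
Log2 signal at or above the floor, minus the gene's mean over the 4 arrays, for the 9 HOXB members above a floor (grey), their mean (black) and the 8 genes outside the HOX clusters nearest to it (lines with points). All lines are low on the CD133-high arrays at left and high on the CD133-low arrays at right, and GRB10 and ID2 differ most between the CD133-high arrays.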

How the data were processed

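The deposited values are linear intensities of probe sets on 4 one-colour arrays. Per the submitters' processing notes they come from MAS5, and no version of it is given in the sources used here. Trimmed by 2% at each end, the mean deposited intensity was 500.1 on every array, so the arrays had been scaled. The table has 54675 probe sets and no detection calls, and 62 of them are controls. Probe sets were named from the platform annotation, where 41091 other than controls have 1 symbol; 41037 matched RefSeq by gene ID, and 0 symbols differed. RefSeq positions served for gene order and for the printed sequences.

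Signals were floored at the 50th percentile of each array. Where both arrays of a pair were at the floor the log2 ratio was 0. Lists of genes used the brightest probe set of a gene, by mean log2 signal. No p-value was computed: each subpopulation has 1 array, the CD133 contrast chose the members, and an additive fit of both sorts was not run. The counting was tested on simulated data.

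The members, the rule for named genes, the 6 related lists and the 5 marker lists were chosen with earlier results of these data known. Named are all HOXB probe sets, HOXB1 and the HOXB antisense genes, up to 4 counted genes of each list, the 3 nearest flanking genes on each side and the 8 genes nearest in profile. Genes named outside the rule were chosen after their values were seen. These are MIR10A, LINC02086, PRAC1, HOXC4, HOXC6, HOXD4, HOXD8, RARA, EZH2, KDM6B and the marker genes. HOXA-AS2, HOXA-AS3, HOXA11-AS, HOTTIP, HOXC10, HOXC11, HOXD1, HOXD10, HOXD11 and HOXD-AS2 belong to them too. Alternatives were floors at the 25th or 65th percentile or none, quantile normalization, arrays brought to equal medians, 1.5-fold and 3-fold thresholds, only probe sets above all 4 floors, leaving out probe sets marked as shared and probe sets averaged per gene. Tables were made in Python 3.11.15 with pandas 2.3.3, numpy 2.4.6 and scipy 1.17.1, and figures with matplotlib 3.10.9.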

Additional observations from a re-analysis of the deposited data

Results flagged for a closer look

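Probe sets whose E-cadherin ratio (E-cadherin-low over E-cadherin-high, log2) was above 0 in one CD133 class and below 0 in the other were set aside for a closer look, among the 11 above all 4 floors. The difference was not tested. Values for CD133-high and then CD133-low cells were 0.32 and -0.24 for HOXB2 205453_at, 0.11 and -0.19 for HOXB3 228904_at, and -0.21 and 0.17 for HOXB4 231767_at. They were 0.80 and -0.17 for HOXB6 205366_s_at, 0.40 and -0.39 for HOXB7 204778_x_at, 0.56 and -0.06 for HOXB7 204779_s_at, and 0.75 and -0.17 for HOXB7 216973_s_at. For HOXB8 229667_s_at they were 0.21 and -0.02, and for HOXB9 226461_at 0.57 and -0.20. All lie within 2-fold.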

How the results depend on the processing

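No paired analysis was possible because the labels give no replicate numbers to block on; matched arrays entered only as ratios, and an additive fit of both sorts was not run. The count of 17 lower HOXB probe sets in the CD133 comparison was 13 to 19 under quantile normalization, equal array medians, the other floors and the other thresholds. It was 11 of 11 when only probe sets above all 4 floors were used, with a median log2 ratio of -3.64 in place of -3.31, the median over probe sets of the mean of both pairs. Without the probe sets marked as shared it was 8 of 10, with a median of -2.02; fewer probe sets enter in both settings. The count in the E-cadherin comparison was 0 under all 9 alternatives that apply to it. The 9 counted genes of the related lists became 2 at 3-fold and 5 with probe sets averaged per gene, and 6 to 13 otherwise. Of 157 values of single HOXB probe sets under the alternatives, 145 kept their call, 12 did not and 0 reversed. The 12 belong to HOXB-AS3 and to the dim probe sets of HOXB6 and HOXB8, where the floor sets the ratio. Without detection calls, signals near the floor carry no order.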

Other observations

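Among the 8 genes outside the HOX clusters nearest to the HOXB profile, 2 lie close to other HOX clusters, a feature noticed after the values were seen. In RefSeq order, SKAP2 has 0 genes with a probe set of 1 symbol between it and HOXA2, which was counted as lower in CD133-high cells, and CHN1 has 3 between it and HOXD13. SKAP1, a gene of the same family as SKAP2, is 1 gene removed from HOXB1 and was counted as lower too. GRB10 and ID2 share a chromosome with a HOX cluster at 135 and 862 genes, and the other 4 do not. No explanation was tested.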
